A study of Mus musculus with 6 samples.

Results

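The 10 genes described here encode the enzymes that build fatty acids from citrate, lengthen them and insert double bonds. They were chosen by symbol (Acly, Acaca, Acacb, Fasn, Scd1, Scd2, Elovl5, Elovl6, Fads1 and Fads2) from the 34245 genes listed, and all 10 were found once each. Their RNA was measured in whole pancreatic islets of C57BL/6J mice aged 5 weeks, by sequencing of poly(A) RNA. The 3 KO libraries came from mice with a conditional Abca12 floxed allele that Rip1-Cre, a recombinase under the rat insulin promoter, had deleted (tm1d). The 3 HET control libraries came from mice heterozygous for the floxed allele that also carried Rip1-Cre, so Cre was present in both groups. Whole islets also hold cells in which the insulin promoter is silent. The comparison asks which islet transcripts differ when beta cells lack Abca12, a member of a family of lipid transporters.

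In lipogenesis, ATP citrate lyase cuts exported citrate into cytosolic acetyl-CoA, acetyl-CoA carboxylase turns that into malonyl-CoA, and fatty acid synthase joins malonyl units into palmitate. Elongases of the ELOVL family add carbons to existing chains, the stearoyl-CoA desaturases place the first double bond of oleate and palmitoleate, and FADS1 and FADS2 act on polyunsaturated chains. The transcription factors SREBP-1c and ChREBP, encoded by Srebf1 and Mlxipl, drive these genes in liver and fat. In beta cells malonyl-CoA is also known for restraining fatty acid oxidation when glucose is high.

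Levels are given in RPM, reads per 1000000 reads of the library total, which was 27447026 to 35511008 reads, and every KO library was shallower than every HET library. At these totals 3 reads equal 0.0845 to 0.109 RPM. The targeted gene could not check the labels, since Abca12 had 2 reads in KO 1 and 0 in the other 5 libraries. KO 2 held both Xist (459 RPM) and Y-linked RNA (99.8 RPM), and how this library came to hold both was not tested. KO 1 and HET 2 held Xist without Y-linked RNA, and KO 3, HET 1 and HET 3 held Y-linked RNA with Xist at most at 0.162 RPM. The beta cell markers Ins1, Ins2 and 8 others summed to 108364 to 141301 RPM across KO and 109816 to 117309 RPM across HET libraries. Of these 10, 8 averaged higher in KO, against 51.4% of all genes tested, with a median log2 difference of 0.24 and 0 called. Single markers ranged more widely, with Mafa at 1526 reads in HET 1 and 6877 in HET 2. The 6 alpha cell markers summed to 13652 to 30829 RPM across KO and 10954 to 19865.5 RPM across HET libraries. Acinar markers, from the surrounding exocrine tissue, took 4.67% of listed reads in HET 1, 1.98% in KO 2, 0.524% in KO 1 and 0.0662% to 0.125% in the other 3 libraries. The first principal component over the tested genes other than these 10 held 70.5% of the variance, with KO 1, KO 2 and HET 1 at one end and KO 3, HET 2 and HET 3 at the other. The same split separates the 3 lower from the 3 higher animal codes in the sample titles, with 2 KO and 1 HET against 1 KO and 2 HET. They are called animal codes here, but what they record, and whether each stands for a single animal, is not stated. An effect of their order is partly mixed with genotype.

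No gene of the pathway was called between KO and HET islets. In a limma test across 14238 genes averaging 1 RPM or more, 0 genes passed an adjusted p of 0.05 (0%), and all 10 pathway genes had an adjusted p of 0.9998. An unadjusted p under 0.05 was reached by 250 genes (1.76%) and by 0 of the 10. The mean was lower in KO for 8 of the 10, against 48.6% of all genes tested, with a median log2 difference of -0.14 against 0.01 for all genes. That count was not stable: 4 of the 10 were lower without HET 2 (median 0.03), 6 without KO 1 (median -0.039), and 5 with the lower against the higher animal codes as a covariate (median -0.019). It was 6 with the first principal component and 7 with the acinar share as a covariate. Without KO 2, which held both Xist and Y-linked RNA, 8 of the 10 were lower and the median was -0.19. In bulk RNA, fewer cells of a type and less RNA per cell cannot be told apart. Each library has its own code in its title, which does not say whether it came from a single animal. The p-values measure the spread between these libraries.

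**Figure D1:**
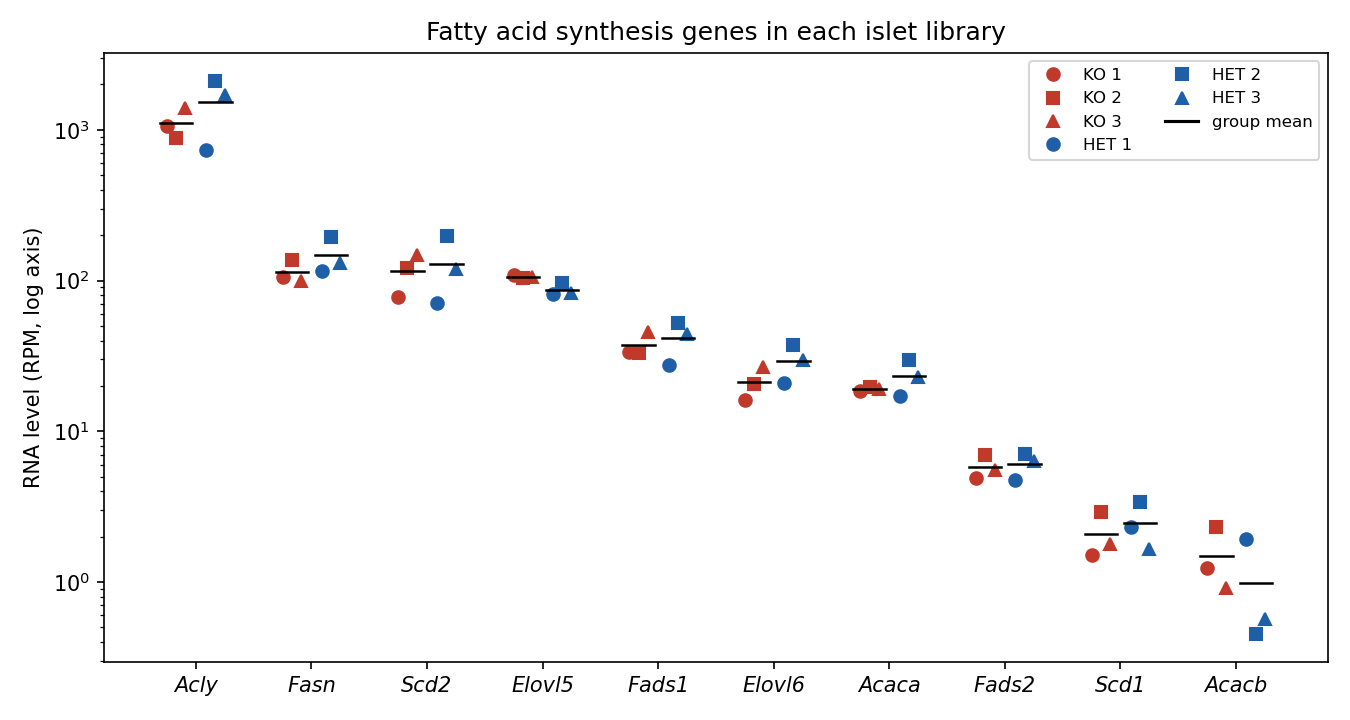
RNA level of each gene in RPM on a log axis, with 1 point per library (red KO, blue HET, circle, square and triangle for replicates 1 to 3) and a black line at each group mean. Acly stands near 1000 RPM and Acacb near 1 RPM, and Elovl5 is the only gene whose KO points all lie above its HET points.

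Acly, the citrate lyase gene, was by far the most abundant transcript of the group. Acly (ENSMUSG00000020917.17, GRCm38 chromosome 11, 100476353 to 100528000, minus strand) had 1053, 885 and 1386 RPM in KO 1 to 3. In HET 1 to 3 it had 741, 2119 and 1711 RPM. The lowest and the highest library were thus both HET, and the KO libraries lay between them. Among the 3 lower animal codes both KO libraries were above HET 1, and among the 3 higher codes KO 3 was below both HET libraries. KO averaged 1108 ± 255 RPM against 1524 ± 708 RPM for HET (± SD, 3 libraries each), and the log2 difference was -0.35 (95% interval -1.29 to 0.59, limma adjusted p = 0.9998). Per kilobase of annotated exon, Acly stood at 249 RPM, rank 47 of 14180 tested genes with a length.

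Within the pathway, the level of Acly per kilobase was 9.12 times that of Elovl5, the next gene, and their ranges did not overlap. Promoter windows from RefSeq (GRCm38.p6), from 250 bases before to 50 after the start, were matched for 7 of the 10 genes, and those of Fads1, Scd1 and Scd2 were not analysed here. The windows were searched on both strands for the CCAAT box, the GC box GGGCGG, the E-box CACGTG and TCACNCCAC, a form of the sterol element that SREBP binds. Over 32544 windows of 300 bases, these letters occurred in 37.4%, 35.9%, 7.17% and 1.24%. Among the 7 windows, 4 held CCAAT, 2 held GGGCGG, 1 held CACGTG and 0 held TCACNCCAC. The windows of Acaca and Acacb, from 84195188 and 114165268, lie well inside the gene spans given below. They thus cover internal starts and not the first annotated start. The Acly window is shown because this gene leads the pathway in level; capitals mark its matches, 4 GC boxes that begin 117, 88, 76 and 27 bases before the start and 1 CCAAT after it (chr11:100527951-100528250, minus strand).
Acly promoter: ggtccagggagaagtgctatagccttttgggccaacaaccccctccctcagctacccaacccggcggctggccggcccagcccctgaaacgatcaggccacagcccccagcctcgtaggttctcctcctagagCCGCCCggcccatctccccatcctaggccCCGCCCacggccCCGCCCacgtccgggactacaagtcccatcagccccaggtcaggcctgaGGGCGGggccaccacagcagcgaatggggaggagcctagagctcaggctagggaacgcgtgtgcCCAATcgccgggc

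Of the acetyl-CoA carboxylase genes, Acaca held most of the RNA, 90.6% of the sum per kilobase of exon. Its product is the cytosolic enzyme of lipogenic tissue. Acaca (ENSMUSG00000020532.18, chromosome 11, 84129672 to 84401651, plus strand) had 18.6, 19.6 and 19.1 RPM in KO 1 to 3, and HET 1 to 3 had 17.1, 29.7 and 22.9 RPM. The KO libraries lay within 1.05-fold of each other, while the HET libraries spanned 1.74-fold on both sides of them. The log2 difference was -0.24 (-0.73 to 0.26, limma adjusted p = 0.9998), and it was -0.05 without HET 2 and -0.14 with the animal codes as a covariate.

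Acacb encodes the carboxylase of the outer mitochondrial membrane, known for making the malonyl-CoA that inhibits fatty acid import. Acacb (ENSMUSG00000042010.16, chromosome 5, 114146535 to 114250761, plus strand) had 1.23, 2.32 and 0.911 RPM in KO 1 to 3. It had 1.94, 0.451 and 0.573 RPM in HET 1 to 3. These values are 16 to 69 reads, so counting error alone spans 0.258 to 0.732 RPM in HET 2 and 1.81 to 2.94 RPM in KO 2 (exact Poisson 95% intervals). The 3 highest libraries for Acacb were KO 2, HET 1 and KO 1. These held the most acinar RNA and also carry the 3 lower animal codes, and which of these Acacb follows was not tested. The log2 difference was 0.36 (-0.43 to 1.15, limma adjusted p = 0.9998), and 0.25 with the acinar share as a covariate. It was 0.15 with the first principal component, 0.11 with the animal codes as a covariate and 0.13 without KO 2. On this scale, log2(RPM + 1), differences of genes near 1 RPM are understated. By limma-voom on the reads the Acacb difference was 0.82 (unadjusted p = 0.226).

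The ratio of Acaca to Acacb within a library does not depend on the library total. It was 15.1, 8.45 and 21 in KO 1 to 3, and HET 1 to 3 had 8.83, 66.0 and 39.9. Per kilobase of exon the ratio ran from 4.77 to 37.2 over the libraries. HET 2 and HET 3 lay above all KO libraries, and HET 1 lay among them. The log2 ratios differed by -1.04 (SDs of 0.665 for KO and 1.51 for HET, 3 libraries each; two-sided exact permutation p = 0.3, where 3 against 3 allow no p below 0.1). Benjamini-Hochberg adjustment over the 5 ratios examined gave 0.75. The difference was -1.89 without HET 1, -0.44 without HET 2, -0.68 without KO 2 and -0.60 with 1 RPM added to both genes.

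Fasn, the gene of the multidomain synthase that makes palmitate, had overlapping groups. Fasn (ENSMUSG00000025153.9, chromosome 11, 120805846 to 120824547, minus strand) had 106, 137 and 99.8 RPM in KO 1 to 3. It had 115, 196 and 132 RPM in HET 1 to 3. HET 2 stood above the rest, and KO 2 was higher than HET 1 and HET 3. KO averaged 114.2 ± 19.8 RPM against 147.6 ± 42.5 RPM for HET (± SD, 3 libraries each), and the log2 difference was -0.34 (-0.91 to 0.22, limma adjusted p = 0.9998). The Fasn window is shown because its gene makes the pathway's first product and because it has the most CCAAT boxes of the 7 windows, the letters bound by NF-Y. The capitals mark 3 of them, beginning 90, 62 and 59 bases before the start, the last pair overlapping on opposite strands (chr11:120824498-120824797, minus strand).
Fasn promoter: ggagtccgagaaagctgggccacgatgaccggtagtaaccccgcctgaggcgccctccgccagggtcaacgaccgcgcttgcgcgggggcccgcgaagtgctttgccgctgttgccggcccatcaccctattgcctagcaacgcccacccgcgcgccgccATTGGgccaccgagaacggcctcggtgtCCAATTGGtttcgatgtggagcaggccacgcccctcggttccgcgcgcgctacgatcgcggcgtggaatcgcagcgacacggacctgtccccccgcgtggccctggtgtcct

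Elovl5 had the narrowest spread within groups of the 10 genes and was the only one whose groups did not overlap. Its product lengthens polyunsaturated chains. Elovl5 (ENSMUSG00000032349.13, chromosome 9, 77917364 to 77984519, plus strand) had 108, 104 and 106 RPM in KO 1 to 3. It had 81.3, 95.9 and 82.2 RPM in HET 1 to 3. The lowest KO library was thus above the highest HET library. KO averaged 106 ± 2.01 RPM against 86.5 ± 8.19 RPM for HET (± SD, 3 libraries each), and the log2 difference was 0.30 (-0.07 to 0.66; unadjusted p = 0.0969, limma adjusted p = 0.9998). KO libraries lay wholly above HET libraries for 4.2% of all genes tested and wholly below for 1.54%, so 1 of 10 higher and 0 of 10 lower is close to this background.

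The spread of Elovl5 within groups was 0.0952 on the log2 scale, smaller than in all but 3.40% of tested genes, against a median of 0.274. Its difference had the same sign in every alternative, from 0.25 to 0.37 when single libraries were left out. With the acinar share, the first principal component or the animal codes as a covariate it was 0.30, 0.31 and 0.32, while no gene passed in these fits (lowest limma adjusted p 0.199, 0.160 and 0.0965). KO libraries were above HET libraries among the lower and among the higher codes. As the groups did not overlap, this order and the sign with a library left out could not have come out otherwise. The window of Elovl5 is shown as that of the gene with separate groups; capitals mark the only CACGTG of the 7 windows, 161 bases before the start, and CCAAT boxes on the opposite strand 71 and 17 bases before it (chr9:77917115-77917414, plus strand).
Elovl5 promoter: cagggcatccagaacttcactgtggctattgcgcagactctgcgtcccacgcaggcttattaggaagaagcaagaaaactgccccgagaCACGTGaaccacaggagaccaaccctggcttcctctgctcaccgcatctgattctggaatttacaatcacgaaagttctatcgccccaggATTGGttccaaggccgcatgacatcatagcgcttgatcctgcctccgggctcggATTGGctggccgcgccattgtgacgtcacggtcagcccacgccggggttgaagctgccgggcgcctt

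Elovl6, whose product lengthens palmitate to stearate, had a lower mean in KO. Elovl6 (ENSMUSG00000041220.10, chromosome 3, 129532355 to 129638495, plus strand) had 16.1, 20.7 and 26.9 RPM in KO 1 to 3, and HET 1 to 3 had 21.04, 37.3 and 29.9 RPM. HET 2 and HET 3 were above every KO library, and HET 1 was below KO 3. The log2 difference was -0.44 (-1.06 to 0.17, limma adjusted p = 0.9998), the lowest among the 10 genes. It was -0.26 without HET 2, -0.27 without KO 1 and -0.25 with the animal codes as a covariate.

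The ratio of both elongase transcripts did not overlap between the groups, which already held for Elovl5 alone. The ratio of Elovl5 to Elovl6 was 6.71, 5.03 and 3.94 in KO 1 to 3, and HET 1 to 3 had 3.86, 2.57 and 2.75. The lowest KO value and the highest HET value nearly touched. Within each group the ratio was higher in the lower animal codes than in the higher ones. Ratios were not fitted with the animal codes, the first principal component or the acinar share as a covariate. How often ratios of other gene pairs separate the groups was not computed. The log2 ratios differed by 0.76, which is 1.70-fold (2.35 ± 0.384 for KO against 1.59 ± 0.316 for HET, ± SD, 3 libraries each; two-sided exact permutation p = 0.1, the smallest this design allows, 0.5 adjusted over 5 ratios). Without any single library the difference stayed between 0.56 and 0.95, and separate groups fix its sign in these fits. The ratio was chosen with earlier results of these data known.

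**Figure D2:**
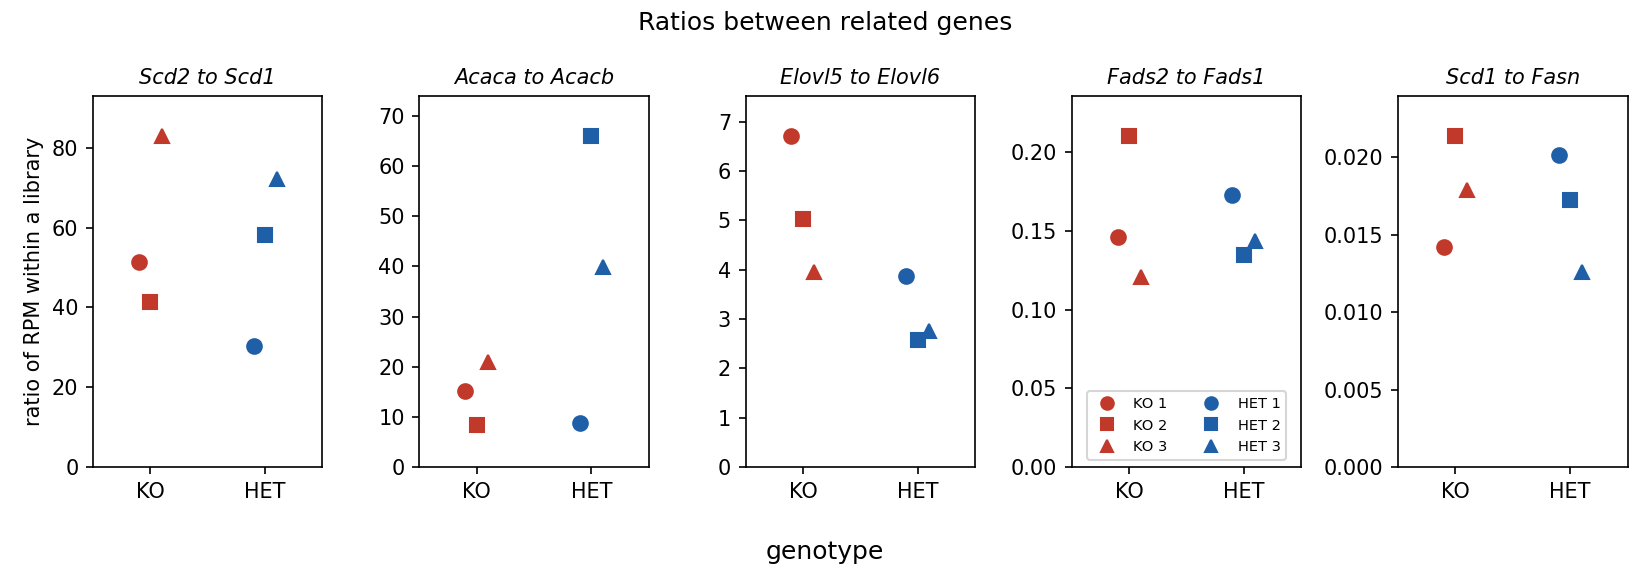
Ratio of RPM of 2 genes within each library, 1 panel per pair with its own axis from 0 and 1 point per library (red KO, blue HET). The ratio of Elovl5 to Elovl6 is 3.94 or more in KO and 3.86 or less in HET, and the other 4 ratios overlap between the groups.

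Elovl5 also led the elongase family as a whole. Per kilobase of exon it averaged 27.3 RPM over the 6 libraries, which was 56.2% of the sum over the 7 Elovl genes. Elovl1, which lengthens saturated very long chains, followed with 8.03, and Elovl2, which acts on long polyunsaturated chains, with 5.81. Elovl6 had 3.94, Elovl7 2.23 and Elovl4 1.34 RPM per kilobase. Elovl3, known from skin and brown fat, had 0 reads in all 6 libraries.

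Of the stearoyl-CoA desaturases, Scd2 made up nearly all of the RNA and Scd1, the main form in liver and fat, was low. Scd2 (ENSMUSG00000025203.6, chromosome 19, 44293676 to 44306864, plus strand) had 77.4, 121 and 148 RPM in KO 1 to 3, and HET 1 to 3 had 70.7, 196 and 120 RPM. As with Acly, the lowest and the highest library were both HET. The log2 difference was -0.09 (-1.01 to 0.83, limma adjusted p = 0.9998), and it was 0.01, 0.12 and 0.20 with the acinar share, the first principal component and the animal codes as covariates.

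Scd1 (ENSMUSG00000037071.3, chromosome 19, 44394451 to 44407709, minus strand) had 1.51, 2.93 and 1.79 RPM in KO 1 to 3, and HET 1 to 3 had 2.33, 3.38 and 1.66 RPM. The groups overlapped throughout, and the values rest on 44 to 120 reads. The log2 difference was -0.17 (-0.79 to 0.46, limma adjusted p = 0.9998). Per kilobase Scd2 reached 96.3% of the family sum, Scd1 1.99%, Scd3 1.58% and Scd4 0.134%. The Scd genes are related copies in a cluster, and how reads that match several copies were counted is not given in the sources used here, so the low levels of Scd1, Scd3 and Scd4 are uncertain.

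The ratio of Scd2 to Scd1 was 51.3, 41.3 and 82.9 in KO 1 to 3, and HET 1 to 3 had 30.4, 58.1 and 72.1. The groups were interleaved, with log2 ratios that differed by 0.16 (two-sided exact permutation p = 0.8, 3 libraries each; 0.8 adjusted over 5 ratios). The ratio of Scd1 to Fasn ran from 0.0142 to 0.0214 in KO and from 0.0126 to 0.0202 in HET, a log2 difference of 0.10 (two-sided exact permutation p = 0.6, 3 libraries each; 0.8 adjusted).

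The genes of both polyunsaturated desaturases had overlapping groups. Fads1 (ENSMUSG00000010663.5, chromosome 19, 10182888 to 10196870, plus strand), whose product is the delta-5 desaturase, had 33.5, 33.1 and 45.7 RPM in KO 1 to 3. It had 27.6, 52.7 and 44.5 RPM in HET 1 to 3. KO 3, HET 2 and HET 3 were the high libraries, so each group had both high and low libraries, and the high ones were those of the higher animal codes. The log2 difference was -0.12 (-0.73 to 0.50, limma adjusted p = 0.9998), and 0.09 with the animal codes as a covariate.

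Fads2 (ENSMUSG00000024665.8, chromosome 19, 10064164 to 10101503, minus strand), the neighbouring delta-6 desaturase gene, had 4.90, 6.96 and 5.54 RPM in KO 1 to 3. It had 4.78, 7.10 and 6.39 RPM in HET 1 to 3, a log2 difference of -0.06 (-0.56 to 0.44, limma adjusted p = 0.9998). The lowest and highest values of both groups nearly coincided. The ratio of Fads2 to Fads1 ran from 0.121 to 0.210 in KO and from 0.135 to 0.173 in HET, a log2 difference of 0.05 (two-sided exact permutation p = 0.8, 3 libraries each; 0.8 adjusted over 5 ratios). Fads6, a less studied relative, averaged 4.66 RPM per kilobase, between Fads1 at 8.21 and Fads2 at 1.80, and Fads3 had 0.774.

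**Figure D3:**
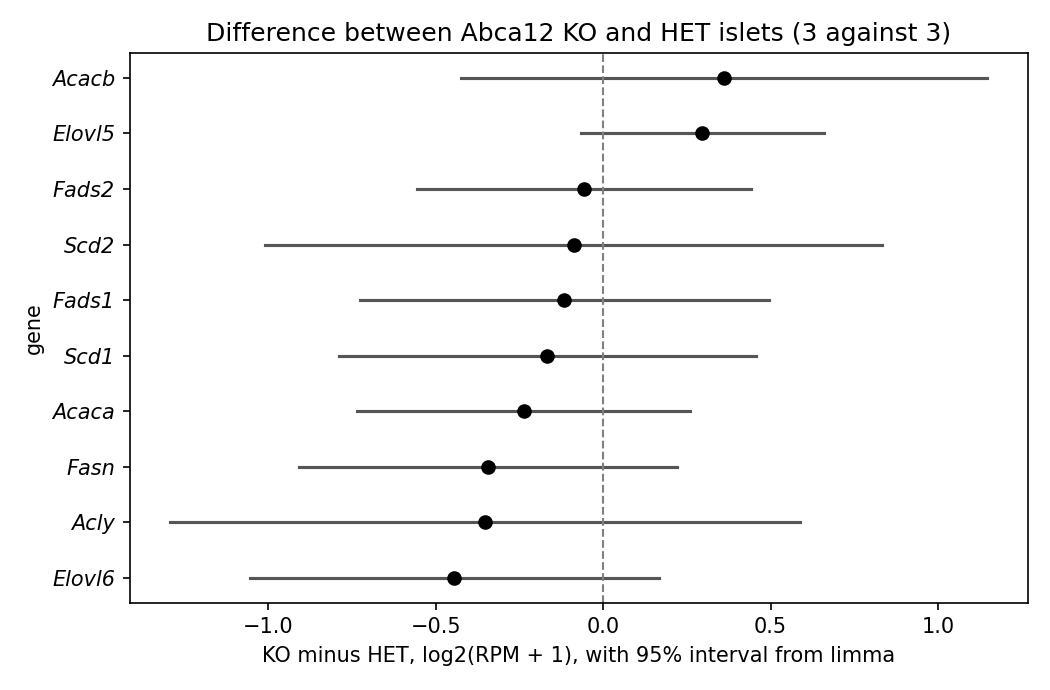
KO minus HET difference of each gene on the log2(RPM + 1) scale (point) with its 95% interval from limma (line), 3 libraries against 3. Every interval crosses 0, from Elovl6 at -0.44 to Acacb at 0.36.

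Ordered by level per kilobase, the genes ran Acly, Elovl5, Scd2, Fasn, Fads1, Elovl6, Fads2, Acaca, Scd1 and Acacb. Neighbours in this order whose ranges over the 6 libraries overlapped were Elovl5 and Scd2, Scd2 and Fasn, Fasn and Fads1, Fads1 and Elovl6, and Fads2 and Acaca. The other 4 steps were free of overlap. Lengths are the merged exons of GENCODE M21, 17074 bases for Acaca and 9632 for Acacb, so genes with many annotated isoforms may appear lower on this scale. Overlap with other annotated genes touched 61 exon bases of Scd2 and 34 of Elovl6 and none of the other 8 genes.

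The genes did not vary alike between libraries. HET 2 was the highest library for 8 of the 10 (Acly, Acaca, Fasn, Scd1, Scd2, Elovl6, Fads1 and Fads2), while it was the highest for 16.9% of all tested genes. HET 1 was the lowest library for 6 of the 10 (Acly, Acaca, Scd2, Elovl5, Fads1 and Fads2) and for 32.9% of all tested genes. Acacb ran against the others, lowest in HET 2 and highest in KO 2. Spread within groups was widest for Scd2 and Acly, at 0.616 and 0.612 on the log2 scale, which exceeded 91.6% and 91.5% of tested genes.

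**Figure D4:**
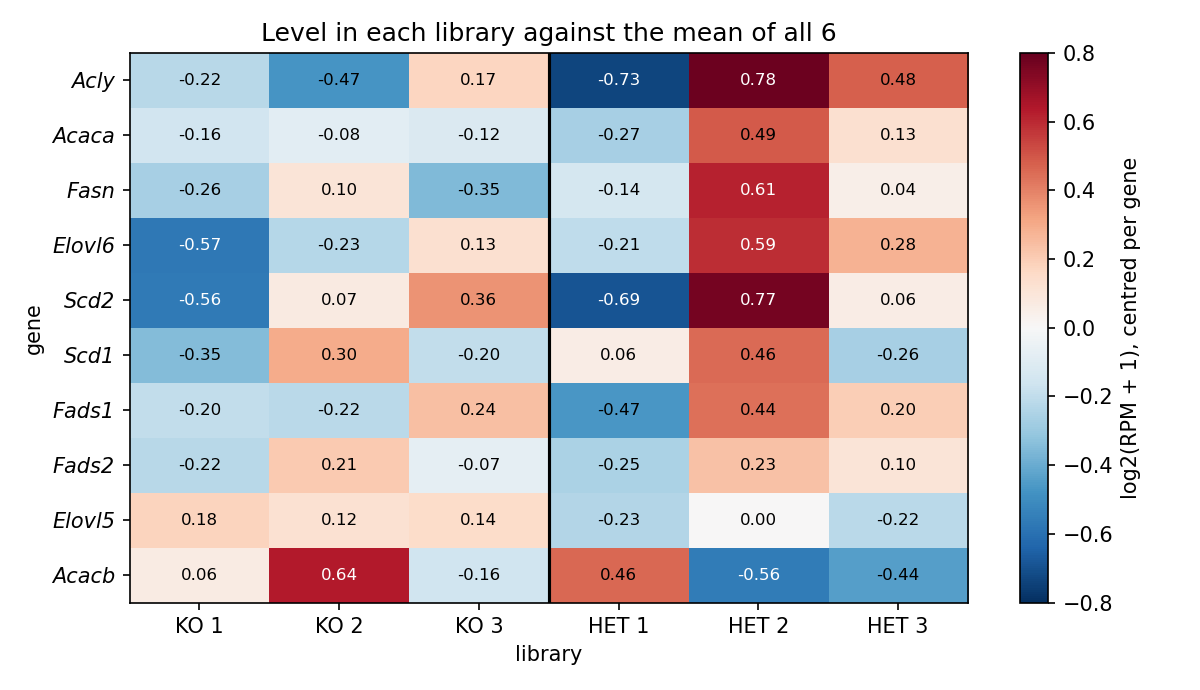
Level of each gene in each library on the log2(RPM + 1) scale, centred on the gene's mean over all 6 libraries (red above, blue below), with KO libraries left of the black line. HET 2 is above the mean for all genes but Acacb, with Elovl5 at 0.00, and HET 1 is below it for all but Acacb and Scd1.

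HET 1 also weighed on the differences. Without it, an unadjusted limma p under 0.05 was reached by Acly at -0.81, Elovl6 at -0.66, Acaca at -0.43 and Acacb at 0.68, which is 4 of the 10 (limma adjusted p 0.393 to 0.416). Such p-values were then common, in 1704 of 14218 genes (12%), and no gene passed after adjustment (lowest adjusted p 0.249 by limma). HET 1 held the most acinar RNA of all libraries and was the only HET library with a lower animal code. Without it the lower codes are all KO, so genotype is mixed further with that split. With all 6 libraries and the acinar share as a covariate Acly differed by -0.22, with the first principal component by -0.09, and with the animal codes by -0.04. Without HET 2 in place of HET 1, Acly differed by -0.05 and Fasn by -0.12.

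The profiles of Fasn and Scd1 over the 6 libraries were compared with those of tested genes other than the 10 described here. Among these other genes, the closest profiles were not those of lipid enzymes. By the root mean square difference between centred log2(RPM + 1) profiles, Arhgef12 was nearest to Fasn at 0.0402, followed by Mycbp2 at 0.0636 and Hectd4 at 0.0798. Mycbp2 and Hectd4 encode ubiquitin ligases. Like Fasn, Arhgef12 was highest in HET 2 (217 RPM) and lowest in KO 3 (116 RPM). For Scd1 the nearest were Hdac4, a histone deacetylase gene, at 0.0827, the tyrosine kinase gene Abl2 at 0.0900, and Adamts18, a protease gene, at 0.0945.

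Among 23 regulators of lipogenesis, 22 were tested and 0 passed, with 11 higher and 11 lower in KO and a median of -0.01. Mlxipl, the ChREBP gene, had 257, 250 and 228 RPM in KO 1 to 3, and HET 1 to 3 had 158, 159 and 176 RPM. All KO libraries lay above all HET libraries, by a log2 difference of 0.57 (0.19 to 0.96; unadjusted p = 0.00873, limma adjusted p = 0.9998), and it was the only regulator with an unadjusted p under 0.05. Left-out libraries moved it between 0.54 and 0.63, and it was 0.56 with the animal codes as a covariate. Insig2, a brake on SREBP processing named here after its values were seen, also had separate groups, with 35.9 to 37.8 RPM across KO and 31.7 to 35.4 RPM across HET libraries. Its log2 difference was 0.15 (limma unadjusted p = 0.332). Groups lay wholly higher in KO for 2 of the 22 regulators and for 4.2% of all genes tested. An unadjusted limma p under 0.05 was reached by 1.76% of all genes tested.

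Srebf1 had 78.3, 81.2 and 87.6 RPM in KO 1 to 3, and HET 1 to 3 had 55.2, 122 and 93.4 RPM, so HET 1 and HET 2 enclosed the KO libraries as they did for Acly. Its log2 difference was -0.06 (-0.71 to 0.59, limma adjusted p = 0.9998), and 0.12 with the animal codes as a covariate. Scap, the escort of SREBP, differed by -0.32 (-0.96 to 0.31, limma adjusted p = 0.9998) and the sterol-responsive Insig1 by 0.21 (-0.48 to 0.90, limma adjusted p = 0.9998). Thrsp, a lipogenic gene of liver and fat also named after its values were seen, stayed under the 1 RPM filter with 5 to 37 reads per library.

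Of 5 known targets of ChREBP outside the pathway, 4 averaged higher and 1 lower in KO, against 51.4% of all genes tested higher. None was called and the median was 0.17, with Gpd1 at only 0.016. Txnip, a thioredoxin-binding protein gene that responds to glucose, had 308, 340 and 53.7 RPM in KO 1 to 3. It had 469, 37.1 and 71.3 RPM in HET 1 to 3. HET 1, KO 2 and KO 1, the lower animal codes, were high, and its log2 difference was 0.72 (-2.17 to 3.60, limma adjusted p = 0.9998). Arrdc4, a related arrestin gene, was high in the same 3 libraries and differed by 0.17 (-0.81 to 1.14, limma adjusted p = 0.9998). With the animal codes as a covariate Txnip turned to -0.24 and Arrdc4 to -0.19.

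Of 9 genes that supply acetyl-CoA and NADPH, 8 had a lower mean in KO, against 48.6% of all genes, with a median of -0.26 and none called. These 8 include Pcx at -0.008 and Idh1 at -0.03, and the count was not repeated with covariates or left-out libraries. The pentose phosphate enzyme gene G6pdx, named here after its values were seen, had 42.7, 43.1 and 45.0 RPM in KO 3, HET 2 and HET 3. It had 14.5 to 16.7 RPM in the other 3 libraries, which carry the lower animal codes. Me1, Idh1 and Pgd were likewise higher in KO 3, HET 2 and HET 3 than in each library of the lower codes. Cs, the citrate synthase gene, differed by -0.26 (-0.85 to 0.33, limma adjusted p = 0.9998), by -0.10 with the first principal component and by -0.058 with the animal codes as a covariate. Acss2, which makes acetyl-CoA from acetate, differed by 0.21 (-0.24 to 0.66, limma adjusted p = 0.9998).

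The remaining lists also held no called gene. Other elongases and enzymes of the elongation cycle had 7 higher and 3 lower means among 10 tested, a median of 0.02, with the dehydratase gene Hacd1 at 0.21 and Elovl2 at 0.16. Other desaturases and their electron donors had 2 higher and 5 lower, a median of -0.09, with Fads6 at -0.25 and Cyb5a, a cytochrome b5 gene, at -0.42. Acyl-CoA synthetases and enzymes of glycerolipid acylation had 7 higher and 11 lower, a median of -0.06. Acsl4, which activates arachidonate, had 38.3 to 47.3 RPM across KO and 48.1 to 57.9 RPM across HET libraries, groups that did not overlap (-0.34, -0.72 to 0.04, limma adjusted p = 0.9998). KO lay wholly lower for 1 of the 18 tested genes of this list and for 1.54% of all genes tested. Agpat5, an acyltransferase gene, differed by -0.36 (-0.88 to 0.16, limma adjusted p = 0.9998).

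Fatty acid synthesis in mitochondria, a separate pathway that feeds lipoate, had 3 higher and 6 lower means among 9 tested, with a median of -0.05. Lias, the lipoate synthase gene, had 24.3 to 29.5 RPM across KO and 15.2 to 26.3 RPM across HET libraries, groups that overlapped through HET 1 (0.40, -0.11 to 0.91, limma adjusted p = 0.9998). Ndufab1, the mitochondrial acyl carrier gene, differed by -0.29 (-0.76 to 0.19, limma adjusted p = 0.9998).

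**Figure D5:**
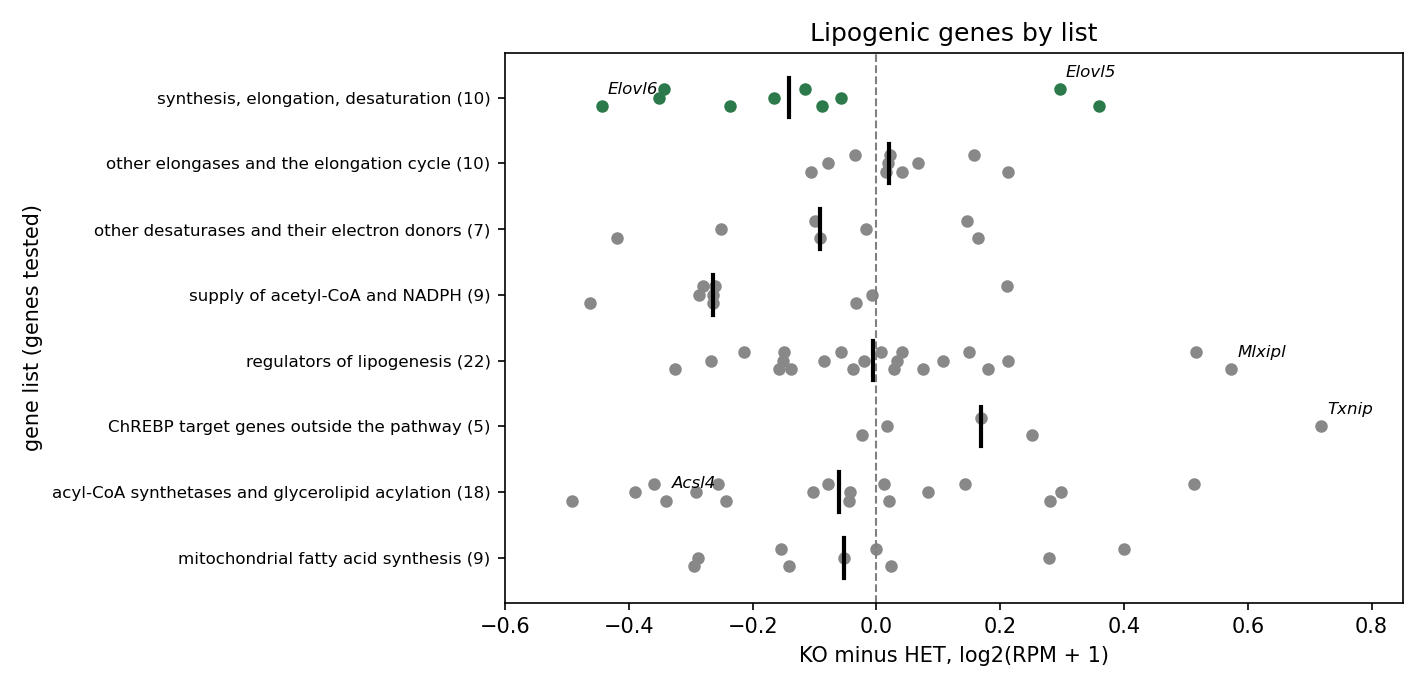
KO minus HET difference on the log2(RPM + 1) scale for every tested gene, 1 row per gene list (green for the 10 genes, grey for the others), with a black bar at each list's median. The medians lie between -0.26 for the supply of acetyl-CoA and NADPH and 0.17 for ChREBP targets.

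Adipocytes and glia, which are rich in several of these enzymes, were checked by their markers. Of 8 adipocyte markers, Plin1, Cfd and Adrb3 had 0 reads in all libraries and Adipoq had 2 reads in KO 3 and 0 elsewhere. Their sum was 3.73 to 5.06 RPM across KO and 2.97 to 8.69 RPM across HET libraries, nearly all of it Fabp4, which endothelial cells and macrophages also express. The 8 Schwann cell and glia markers summed to 84.96 to 109 RPM across KO and 78.1 to 89.9 RPM across HET libraries, most of it Mbp, Gfap had 0 reads in 3 libraries, and Sox10 and Cdh19 were highest in KO 2 with 51 and 189 reads. The sum was lowest in HET 1, where Scd2 was also lowest, and it was not highest in HET 2, where Scd2 was. The part of glia in the level of Scd2 was not tested.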

How the data were processed

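Poly(A) RNA of whole islets was sequenced in 6 libraries, 3 KO and 3 HET, grouped by their genotype labels. Replicate numbers follow the order of the records and pair no libraries. HISAT2, DESeq2 and GRCm38 are named per the submitters' processing notes, with no versions or roles; the sources used here do not give the counting program, annotation or strand setting (not stated). The authors deposited log2 values for 34245 genes. Within each library deposited log2 values corresponded to whole multiples of 1 read (100% of the 93649 values under 1000 reads that were checked, within 0.01 read), and a gene with 0 reads carried the value of 0.9 read. The values were therefore read as log2 RPM, and genes at the lowest value were set to 0. The authors' deposited fold change (a HET to KO ratio) was not used. A second sheet of 3 genes was not used.

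As the values were not counts, the test was limma's moderated test (version 3.58.1 in R 4.3.3, trended and robust) on log2(RPM + 1), for genes averaging 1 RPM or more, with Benjamini-Hochberg adjustment over all genes and a threshold of 0.05. All 10 members passed the filter. It was tested on simulated data first. Ratios were compared by exact permutation with scipy 1.17.1. Gene identifiers and exon lengths came from GENCODE M21, where 92.6% of genes had identical positions; Scd1, Scd2, Fads1 and Fads2 were matched by symbol. Members, lists and tests were chosen with earlier results of these data known. The genes named are the 10 members, Abca12, Srebf1, Mlxipl, Insig1, and the 2 genes with the lowest p in each other list. The 3 profiles nearest to Fasn and to Scd1 among tested genes that are not members are named too. Insig2, G6pdx, Me1, Idh1, Pgd, Pcx, Thrsp and Gpd1 were named outside this rule, after their values were seen. The same holds for single cell type markers and the relatives of the members in their families. Replicate libraries differed beyond sampling noise (chi-square over its degrees of freedom, 17.8 to 227.5). Alternatives covered scaling, filters, pseudocounts, moderation, limma-voom, covariates and left-out libraries. Intervals and floors on reads cover counting error only.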

Additional observations from a re-analysis of the deposited data

How the results depend on the processing

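No gene was called in any alternative run, by limma or by limma-voom on the reads (80 to 1704 genes with an unadjusted p under 0.05). Acly, Acaca, Acacb, Fasn, Elovl5, Elovl6 and Mlxipl kept their direction in each fit that tested them. For Elovl5 and Mlxipl, with separate groups, left-out libraries could not have changed it. Leaving out single libraries gave 4 to 8 members with a lower mean and a median from -0.40 to 0.032. In the same fits Scd1 ran from -0.36 to 0.020, Scd2 from -0.46 to 0.27, Fads1 from -0.38 to 0.076 and Fads2 from -0.20 to 0.045. Srebf1 ran from -0.37 to 0.19, Hacd1 from -0.030 to 0.37, Txnip from -0.039 to 1.77 and Arrdc4 from -0.12 to 0.57. The log2 ratio differences ran from -0.21 to 0.42 for Scd2 to Scd1, -1.89 to -0.44 for Acaca to Acacb, -0.17 to 0.23 for Fads2 to Fads1 and -0.085 to 0.26 for Scd1 to Fasn. With the acinar share as a covariate Scd2 turned to 0.0083 and Srebf1 to 0.018. With the first principal component Scd2 turned to 0.12, Fads1 to 0.046, Srebf1 to 0.088, Txnip to -0.020 and Arrdc4 to -0.12. With the lower against the higher animal codes as a covariate, chosen after seeing the data, 5 members had a lower mean, and Scd2 turned to 0.20, Fads1 to 0.090, Fads2 to 0.00082, Srebf1 to 0.12, Insig1 to -0.034, Txnip to -0.24 and Arrdc4 to -0.19. The cause was not tested. A covariate for Y-linked RNA, also chosen then, reversed none of the named genes. At 5 RPM, Acacb and Scd1 fell under the filter. No paired analysis was possible because the labels give no replicate numbers. With 3 libraries a group the intervals stay wide (-1.29 to 0.59 for Acly), and the read counts of Acacb and Scd1 add counting error.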
